A study of Mus musculus with 3 samples.

Results

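Skin T cells were rare in these libraries of mouse back skin, and most fell into 2 receptor types. The proportions of the types differed between the 12 months and 6 months libraries. The size of that difference moved with depth and with how cells holding RNA of both types were counted. T cells numbered 94 among the 6742 kept cells of those libraries, with 42 of 3240 kept cells at 12 months (1.30%, 95% Clopper-Pearson interval 0.936 to 1.75%) and 52 of 3502 at 6 months (1.48%, 1.11 to 1.94%, or 2.83% among cells with at least 1000 genes). A kept cell had over 200 and under 5000 genes detected and under 15% of its unique molecular identifiers (UMIs, 1 per captured transcript) from mitochondrial genes. A kept cell was taken as a T cell where at least 3 of 9 T cell genes (Cd3g, Cd3e, Cd3d, Cd2, Cd28, Trac, Trbc2, Trdc and Tcrg-C1) had a UMI and the keratins Krt14 and Krt5 together made up under 0.2% of UMIs. Cells with Trdc or Tcrg-C1 and no Trac were called γδ, and cells with Trac and neither of those were called αβ.

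The study followed hair follicles during aging by droplet single-cell RNA sequencing read from the 3′ ends of transcripts, and 3 libraries were used here, 1 for each of P38 (postnatal day 38), 6 months and 12 months, with 8851 kept cells in all. All came from dissociated back skin of untreated wild-type mice. The study describes mice carrying the reporter Krt14-H2BGFP, which marks keratin-14-positive epithelial cells, and a sort of those cells by flow cytometry, while the sample labels describe dissociation and name no sort. The P38 mouse was male with follicles in catagen, the regressing stage. The 6 months mouse was female with follicles mostly in anagen, the growing stage, and the 12 months mouse was male with a mix of telogen, the resting stage, and anagen. With 1 library per age, age, sex, hair cycle stage and library cannot be told apart, no test between ages was possible and no p-value is given. All intervals cover counting error only.

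A T cell carries a receptor made of paired α and β or γ and δ chains, which signals through the CD3 proteins. In mouse skin the best known γδ population sits in the epidermis, where dendritic epidermal T cells enter before birth, stay for life between keratinocytes and answer to keratinocyte stress through the receptor and through NKG2D. These cells share 1 receptor, with a γ chain from Tcrg-V5 and a δ chain from Trdv4, the segment called Vδ1 in the older naming. A second γδ population of mouse skin, mostly dermal, makes IL-17 and carries the IL-23 and IL-7 receptors. αβ T cells of skin include CD8 and CD4 cells, among them regulatory cells that need Foxp3.

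The genes of the rule chose the cells, so their levels are a description. Cd3g, a CD3 chain, was found in 42 of 42 T cells at 12 months and 48 of 52 at 6 months. The other CD3 chains of the rule followed, Cd3e in 42 and 45 cells and Cd3d in 38 and 43 cells at 12 and 6 months. The adhesion molecule Cd2 was in 38 and 35 cells, and Cd28, the costimulatory receptor, in only 7 and 20. Ptprc (CD45), the common leukocyte marker that the rule did not use, was in 41 of 42 and 51 of 52 cells. At the edge of the rule, 1 cell in each library had exactly 3 of the 9 genes, 13 and 8 cells low in keratin had exactly 2, and 2 cells in each library passed on T cell genes but held 0.671% to 1.85% keratin at 12 months and 0.257% to 0.429% at 6 months. The T cells held a median of 4529 UMIs (2474 to 26271) at 12 months and 4171 (1092 to 11721) at 6 months, against medians of 11518.5 and 899.5 in the other kept cells. At P38 only 2 of 2109 kept cells met the rule (0.0948%), with 0 Ptprc UMIs and 0 Trdv4 UMIs, and they were not used.

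Krt14 and Krt5 had no UMI in 16 of 42 T cells at 12 months and 29 of 52 at 6 months, and the highest share in any T cell was 0.0763% and 0.0813%. The Langerhans cell and macrophage genes Cd207, Lyz2, C1qa, C1qb, Mrc1 and Adgre1 had 0 UMIs in T cells of both libraries, as did all 6 mast cell and all 4 neutrophil genes on the lists. The rest of the Langerhans and macrophage list, Cd74, H2-Aa, H2-Ab1, H2-Eb1 and Csf1r, was read in some T cells. These genes summed to 20 UMIs in 11 of 42 T cells at 12 months and 56 UMIs in 10 of 52 at 6 months. At least 3 markers of a lineage other than keratinocytes (macrophage, fibroblast, endothelial, mast, melanocyte or B cell) were found in 1 T cell at 12 months and in 3 at 6 months, and at least 3 of the 9 listed keratinocyte genes in 6 of 42 and 5 of 52 T cells. The 12 months cell with markers of another lineage was a γδ cell of 26160 UMIs that held nearly all collagen RNA of the T cells, the fibroblast list summing to 17056 CPM (UMIs per 1000000 UMIs of the class) at 12 months against 56.7 CPM at 6 months. At 12 months 3 T cells had over 20000 UMIs (25183, 26160 and 26271), against none at 6 months, and their CD3 genes summed to 850 CPM against 9101 CPM in the other 39. The cell of 25183 UMIs, of neither receptor type, held 720 of the 850 keratinocyte UMIs of the 12 months T cells (28591 CPM in that cell, 7 of 9 genes found), and the αβ cell of 26271 UMIs held 67 (2550 CPM, 6 of 9 genes). The keratinocyte list summed to 3315 CPM in T cells at 12 months and 327 CPM at 6 months, to 341 CPM at 12 months without the 3 cells of over 20000 UMIs, and to 316 and 367 CPM in γδ cells, against 20057 and 21822 CPM in other kept cells. What part of any result comes from RNA of other cells was not tested. No doublet caller was run. In the opposite direction, T cell receptor RNA in other cells marked the background: Trdc was in 5 of 1229 keratin-high cells at 12 months (median 12554 UMIs) and 5 of 1173 at 6 months (median 1378 UMIs), and in 0 of 85 and 0 of 56 cells high in MHC class II (medians 9109 and 8782.5 UMIs), which allows shares of up to 3.53% and 5.36%. Trbc2 was in 270 of 1229 and 106 of 1173 keratin-high cells, so a UMI of this gene alone did not mark a T cell. The 12 months and 6 months libraries shared 136 cell barcodes, 0 of them among T cells. Xist was read in 51 of 52 T cells at 6 months and 0 of 42 at 12 months, as the labelled sexes have it.

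The split by receptor chain gave 31 γδ, 2 αβ, 8 with both and 1 with neither at 12 months, and 23 γδ, 24 αβ, 3 with both and 2 with neither at 6 months. Among cells of one type or the other, γδ cells were 93.9% at 12 months (31 of 33, 79.8 to 99.3%) and 48.9% at 6 months (23 of 47, 34.1 to 63.9%). γδ cells carried many receptor UMIs, with Trdc and Tcrg-C1 summing to 10 to 64 per cell (median 28) at 12 months and 3 to 77 (median 24) at 6 months. αβ cells were identified from far fewer, with 1 to 20 Trac UMIs per cell (median 4.5) at 6 months and 3 and 4 in the 2 cells at 12 months. In the 8 cells with both at 12 months Trac had 1 to 3 UMIs (1 UMI in 5 of them) beside 7 to 47 for Trdc and Tcrg-C1 (median 24), and the 3 at 6 months had 1 Trac UMI each beside 5 to 53. Trac was in 13 of 1229 keratin-high cells at 12 months and 4 of 1173 at 6 months. Trac was thus read more thinly than the δ and γ genes, and depth moved the split: thinned to 1000 UMIs per cell, the γδ share was 97.1% at 12 months (84.7 to 99.9%) and 72.7% at 6 months (54.5 to 86.7%), with overlapping intervals. With cells holding both counted as αβ it was 75.6% (59.7 to 87.6%) and 46% (31.8 to 60.7%), which also overlap, with cells holding both as γδ 95.1% and 52%, and at 12 months without the T cells of over 20000 UMIs 96.8%. The γδ share was the higher one at 12 months in each of these.

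**Figure D1:**
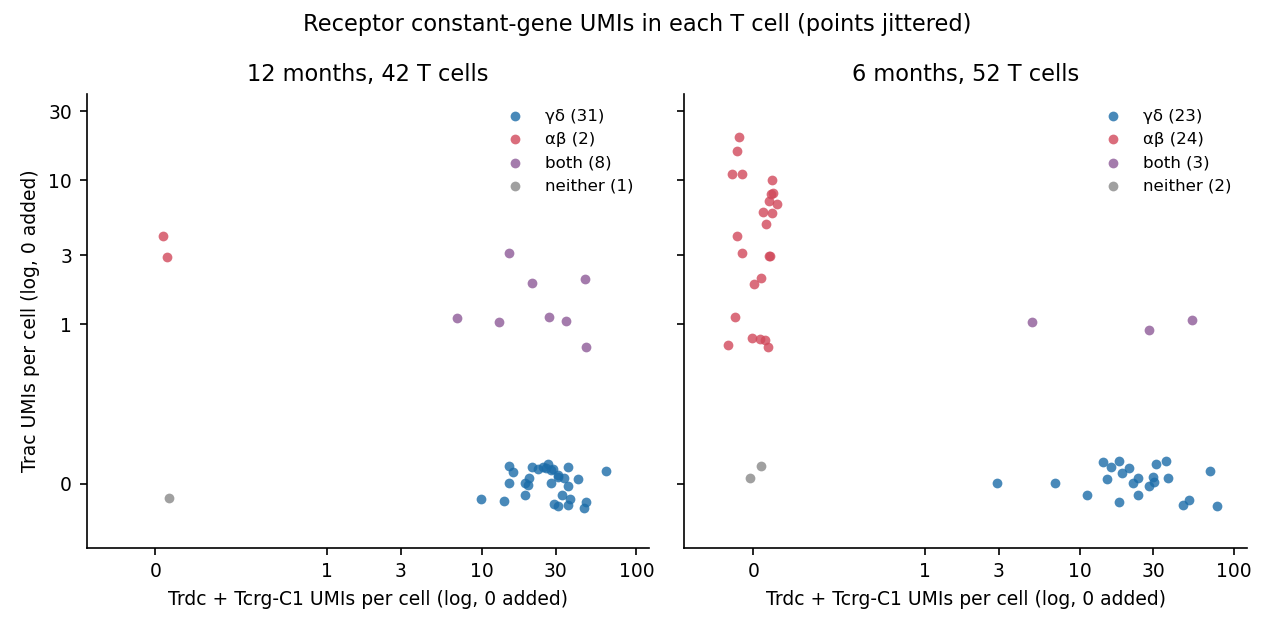
UMIs of the receptor constant genes in each T cell, with Trdc plus Tcrg-C1 on the horizontal axis and Trac on the vertical axis (both log scales with 0 added, points jittered), for 12 months on the left and 6 months on the right. The 31 and 23 γδ cells lie at 10 to 64 and 3 to 77 UMIs, the 24 αβ cells of 6 months at 1 to 20 Trac UMIs, and cells with both hold 1 to 3 Trac UMIs.

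The main δ variable segment read was Trdv4. Trdv4 (GRCm38 chr14:54074905-54075515, plus strand), which lies upstream of the δ constant gene Trdc (chr14:54142851-54148868) and of the α constant gene Trac (chr14:54220521-54224206), was read in 26 of 31 γδ cells at 12 months (527 CPM, 0 to 14 UMIs per cell, median 2) and in 20 of 23 at 6 months (620 CPM, 0 to 8, median 2), and in 0 of 24 αβ cells. A 0 in 31, 23 or 24 cells allows a share of up to 9.68%, 13.0% or 12.5%. It was in 0 keratin-high and 0 MHC class II-high cells of either library. Tcrg-V5 (chr13:19192278-19192725) was read in 4 of 31 and 5 of 23 γδ cells, each of which also held Trdv4, and Tcrg-V6, the γ segment that pairs with the same δ segment in IL-17 cells, had 0 UMIs in all T cells. Other segments were near absent: Tcrg-V4 and Trdv1 had 1 γδ UMI each at 12 months and Trdv2-2 and Tcrg-V1 had 1 each at 6 months. A variable segment sits near the 5′ end of its transcript, away from the end this assay reads, so cells without a UMI are not shown to lack it.

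Among constant genes, Tcrg-C1 (chr13:19214103-19217024) was in 29 of 31 and 22 of 23 γδ cells and Tcrg-C4 (chr13:19344558-19352756) in 16 and 8, the second being a gene of another rearranging cluster. Of the 31-base words in the last 500 bases of Tcrg-C1, 48.5% also occur in other γ constant genes, against 0 for Tcrg-C4, so reads among Tcrg-C1, Tcrg-C2 and Tcrg-C3 may be misassigned. The β constant genes were not confined to αβ cells. Trbc1 was in 16 of 31 γδ cells at 12 months and 18 of 23 at 6 months, at 292 and 827 CPM, against 9 of 24 αβ cells at 356 CPM, and Trbc2 was in 13, 20 and 13 cells. Of the end words of Trbc1 and Trbc2, 43.8% and 27.4% also occur in the other gene of the pair, so which of them was read is uncertain. No γδ cell of 6 months lacked both, and with either β gene taken as αβ evidence the γδ share at 6 months was 0.

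Beyond the rule genes, the T cells stood out from other kept cells by receptor signalling and natural killer (NK) type genes. Since the cells had been chosen against the rest by T cell genes, these ratios describe the population and test nothing. Of 4243 genes measured at 12 months, 28.6% were at least 2-fold higher in T cells than in other kept cells, and of 4332 at 6 months 26.7%, where measured means at least 10 UMIs held or expected in the class with fewer UMIs. The list of proximal receptor signalling had 15 of 15 measured genes higher at 12 months and 25 of 25 at 6 months, with a median log2 ratio of 7.60 and 7.0 against 0.24 and 0.03 for all measured genes. All 9 and 11 measured NK receptor genes, all 14 pan-leukocyte genes in each library and 7 of 8 cytotoxic effectors in each were higher. The epidermal γδ list had 14 of 16 and 16 of 17 higher, and the tetraspanin Cd9, which keratinocytes also make, was lower. Of the Langerhans and macrophage list, 0 of 6 and 0 of 5 measured genes were higher. Of the MHC class I list, 0 and 3 of 7 measured genes were higher.

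**Figure D2:**
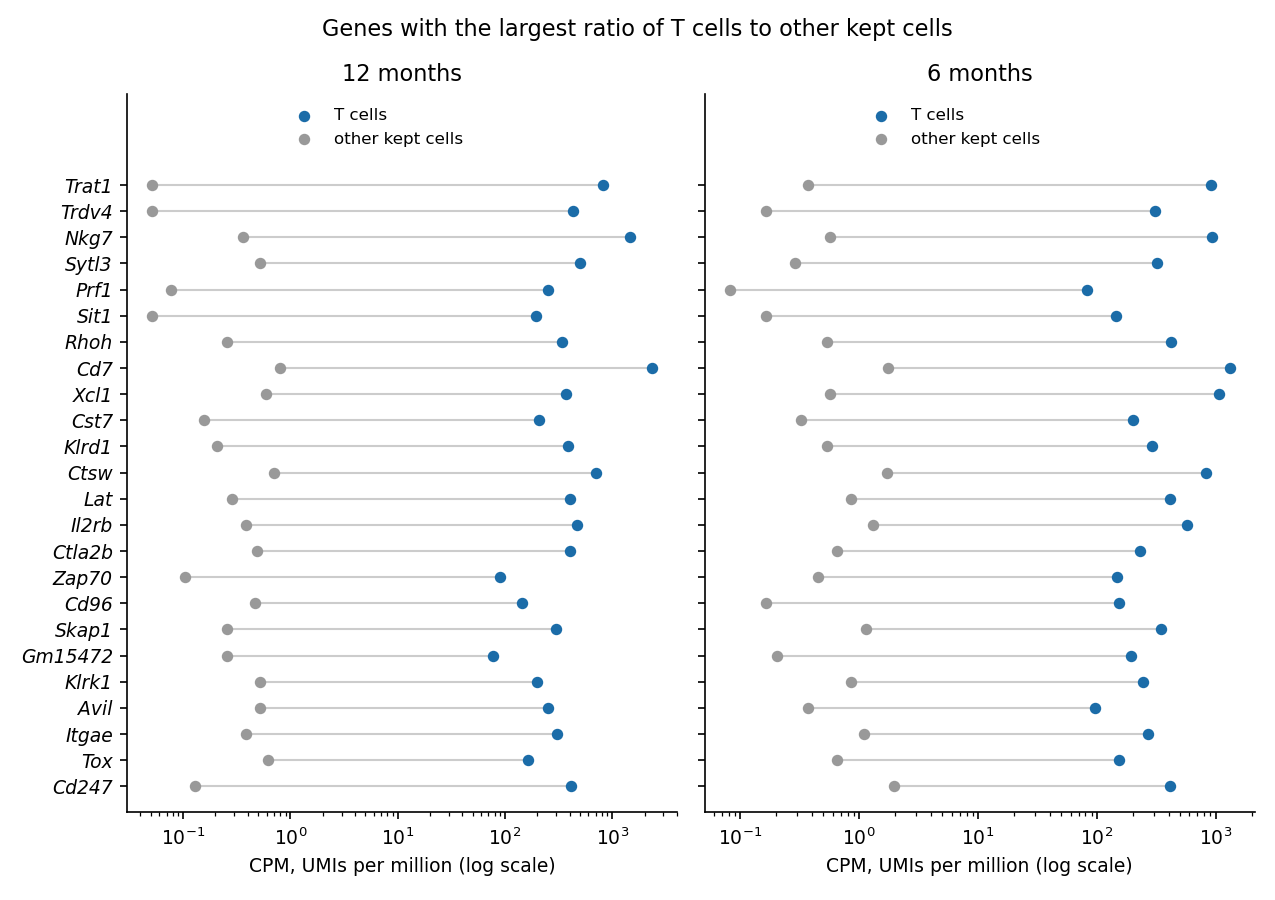
CPM (log scale) of genes with the largest ratio, in T cells and in the other kept cells, at 12 months on the left and 6 months on the right. Every gene shown lies at 78.0 CPM or more in T cells and at 1.96 CPM or less in other kept cells of both libraries.

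The 25 genes with the largest ratio in both libraries, rule genes apart, were led by Trat1, an adaptor that stabilizes the receptor complex, at 819 CPM in T cells against 0.0517 in other kept cells at 12 months and 903 against 0.368 CPM at 6 months. Adaptors and kinases downstream of the receptor made up much of the rest: Lat, Zap70, Skap1, Sit1, Rhoh and the ζ chain gene Cd247. Zap70, the kinase that binds the phosphorylated receptor, was at 89.7 against 0.103 CPM at 12 months and 148 against 0.450 CPM at 6 months. Killing and NK genes formed the next group, with Nkg7 (1463 and 934 CPM in T cells of 12 and 6 months), Prf1, which encodes the pore-forming perforin (250 and 82.9 CPM), Ctsw, Cst7, Klrd1 and Klrk1, the gene of NKG2D. Cd7 was the most abundant of the 25 in both libraries, at 2364 and 1309 CPM. Xcl1, a chemokine that attracts cross-presenting dendritic cells, was at 371 CPM at 12 months and 1064 CPM at 6 months. Itgae, the integrin αE that binds E-cadherin on keratinocytes, was in 33 of 42 and 28 of 52 T cells. The set also held Trdv4, Sytl3, Il2rb, Ctla2b, Cd96, Gm15472, Avil and Tox.

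Promoters of these genes were searched because the genes were high in the same cells. Of the 25, 15 had a RefSeq promoter window of 300 bases, 250 before to 50 after the start (GRCm38.p6). The letters TGTGGT on either strand, the core that RUNX factors bind, were in 11 of 15 windows (73.3%), against 18.9% of the windows of 27025 genes. AGGAAG, an ETS core, was in 9 (60%) against 38.4%, and the longer ACAGGAAG, which contains it, in 3 (20%) against 4.06%. CCGGAAG, another ETS form, was in 0 against 9.93%, the octamer ATTTGCAT in 0 against 1.97%, and GATAAG in 1 (6.67%) against 8.58%. These 6 motifs were searched on both strands. A match is a description of letters, not a bound site. Among RUNX genes, Runx3 was in 23 of 31 γδ cells at 12 months, 16 of 23 at 6 months and 10 of 24 αβ cells. Runx1 was lower in T cells than in other kept cells, at 27.3 against 88.7 CPM at 12 months and 56.7 against 130 CPM at 6 months. The windows of an adaptor (Trat1), a granule protein (Nkg7), a chemokine (Xcl1) and perforin (Prf1) are shown 5′ to 3′ along the gene, from RefSeq with build GRCm38.p6, because each holds the commonest of the motifs once, in capitals, here in all 4 on the reverse strand as ACCACA.
Trat1 promoter, chr16:48772013-48772312, minus strand: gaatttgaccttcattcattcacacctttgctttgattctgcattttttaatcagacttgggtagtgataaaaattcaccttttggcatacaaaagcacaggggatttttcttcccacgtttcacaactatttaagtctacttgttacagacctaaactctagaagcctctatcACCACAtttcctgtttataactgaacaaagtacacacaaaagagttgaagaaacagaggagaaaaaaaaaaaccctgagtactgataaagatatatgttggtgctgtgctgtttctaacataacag
Nkg7 promoter, chr7:43436888-43437187, plus strand: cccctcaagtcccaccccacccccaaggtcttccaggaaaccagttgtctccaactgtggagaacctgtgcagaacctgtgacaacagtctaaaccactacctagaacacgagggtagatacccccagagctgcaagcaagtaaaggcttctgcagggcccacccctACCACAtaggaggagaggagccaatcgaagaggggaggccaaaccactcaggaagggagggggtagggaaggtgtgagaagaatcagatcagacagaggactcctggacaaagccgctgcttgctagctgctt
Xcl1 promoter, chr1:164935473-164935772, minus strand: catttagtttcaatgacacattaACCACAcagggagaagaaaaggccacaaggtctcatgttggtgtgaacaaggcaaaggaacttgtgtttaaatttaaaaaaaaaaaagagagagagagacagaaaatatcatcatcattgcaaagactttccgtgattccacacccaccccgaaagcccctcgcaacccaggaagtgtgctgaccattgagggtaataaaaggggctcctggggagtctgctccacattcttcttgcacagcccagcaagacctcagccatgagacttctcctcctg
Prf1 promoter, chr10:61297586-61297885, plus strand: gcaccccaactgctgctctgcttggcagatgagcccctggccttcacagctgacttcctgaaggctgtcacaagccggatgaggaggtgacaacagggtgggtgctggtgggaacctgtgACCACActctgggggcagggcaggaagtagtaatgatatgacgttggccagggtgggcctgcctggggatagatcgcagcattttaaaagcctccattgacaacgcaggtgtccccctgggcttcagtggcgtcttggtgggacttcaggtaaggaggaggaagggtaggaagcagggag

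γδ and αβ cells of the 6 months library differed by whole groups of genes. This comparison could not be made at 12 months, with 2 αβ cells. Of 2026 genes measured at 6 months, 19.9% were at least 2-fold higher and 18.6% at least 2-fold lower in γδ cells. On the list of αβ co-receptors, 0 of 6 measured genes were higher and 6 were lower, with a median log2 ratio of -5.79 (-3.18 with genes at 0 held at their bound) against -0.02 for all measured genes. Of the NK receptors and adaptors 7 of 11 were higher and 2 lower, and of the epidermal γδ list 9 of 17 higher and 3 lower (Jaml, Gzmc and Tyrobp). Chemokine receptors (0 higher, 4 lower of 4), cytokine receptors (0 and 7 of 11), regulatory T cell genes (1 and 6 of 8), transcription factors (2 and 8 of 15), tissue residency genes (2 and 6 of 12) and cell cycle genes (0 and 4 of 5) leaned to the αβ cells. Summed over the cell cycle list, however, the median per cell was 608 CPM in both types. The highest αβ cell reached 11485 CPM and the highest γδ cell 1769 CPM, so that count does not describe a typical αβ cell. Proximal signalling genes had 2 higher and 7 lower of 20, and cytotoxic effectors 3 higher and 2 lower of 8. MHC class I had 0 higher and 2 lower of 6, cytokines and chemokines 2 higher and 5 lower of 11, inhibitory and costimulatory receptors 3 and 4 of 8, IL-17 γδ genes 3 and 1 of 6, pan-leukocyte genes 0 and 4 of 14, and recirculation genes 0 and 1 of 2.

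The CD3 genes themselves differed in level. Cd3g averaged 5169 CPM in γδ cells against 1038 CPM in αβ cells, a 4.98-fold difference (95% counting interval 4.03 to 6.19), with 4 to 72 UMIs per γδ cell and 0 to 16 per αβ cell. Cd3e was 6.18-fold higher in γδ cells (4.70 to 8.25). Both are genes of the rule. Ptprc, outside the rule, was at 1137 CPM in γδ and 1167 CPM in αβ cells.

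NK-type genes marked the γδ cells. Fcer1g, the signalling adaptor of several NK and Fc receptors, was in 29 of 31 γδ cells at 12 months (2035 CPM), in 21 of 23 at 6 months (2303 CPM) and in 1 of 24 αβ cells at 6 months, and the γδ cells held a median of 10 and 8 UMIs. Cells high in MHC class II also carry it, with 79 of 85 and 49 of 56. Cd207, Lyz2, C1qa and Adgre1 were at 0 in every T cell. Other genes of the Langerhans and macrophage list were read, with 7 UMIs in 6 of 31 γδ cells at 12 months and 15 UMIs in 3 of 23 at 6 months. Tyrobp (DAP12), the adaptor that NK and myeloid cells usually hold beside Fcer1g, had 0 UMIs in the γδ cells of both libraries, whereas Hcst (DAP10), the adaptor through which NKG2D signals, was in 25 of 31 and 16 of 23. Cd7 was in 30 of 31, 21 of 23 and 5 of 24 cells, at 3190 and 2547 CPM in γδ cells of 12 and 6 months and 188 CPM in αβ cells. Klrd1 (CD94) was in 26, 18 and 4 cells, Prf1 in 24, 11 and 1, Nkg7 in 31, 20 and 10, and Itgae in 25, 17 and 10. Klrk1 did not separate the types, at 263 CPM in γδ and 188 CPM in αβ cells of 6 months (1.40-fold, 0.755 to 2.65). Gzma had 0 UMIs in every T cell and Gzmb 1 UMI in all, in a cell that was neither γδ nor αβ, so perforin RNA was not accompanied by these granzymes. Another granzyme gene, Gzmc, was read in γδ cells of 6 months, below its level in αβ cells, where 1 cell held all of it.

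**Figure D3:**
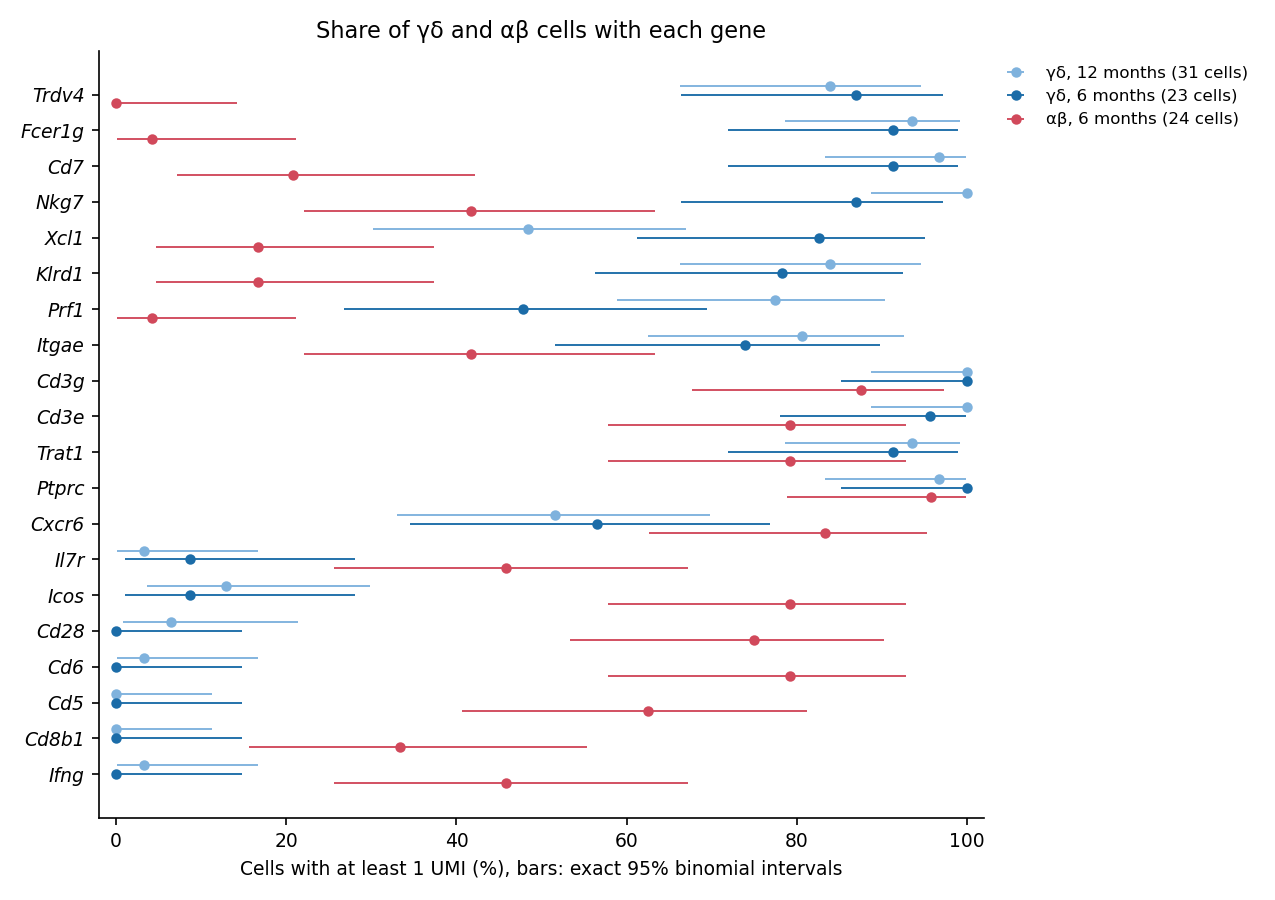
Share of cells with at least 1 UMI of each gene (percent, with exact 95% binomial intervals) in γδ cells of 12 months and 6 months and in αβ cells of 6 months. Trdv4, Fcer1g, Cd7 and Klrd1 lie at 78.3% or more in γδ cells of both ages and at 20.8% or less in αβ cells, while Icos, Cd28, Cd6 and Cd5 lie at 12.9% or less in γδ cells and at 62.5% or more in αβ cells. Cd3g, Cd3e and Cd28 are genes of the rule.

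The 10 genes with the largest γδ over αβ ratio all had 0 UMIs in αβ cells, so each ratio is a lower bound against a floor of 3 UMIs in the αβ sum. Trdv4 was at least 20.9-fold higher, Fermt2 (kindlin-2, an activator of integrins) at least 20.3-fold and Trmt61b (a mitochondrial RNA methyltransferase) at least 19.6-fold. Fermt2 was in 19 of 23 γδ cells at 602 CPM. Map1b (a microtubule protein), Fam174b, Matk (a kinase that inhibits Src-family kinases), Plscr1, Id3 (an inhibitor of E proteins), Ctnnd2 and Pmp22 followed, at least 13.3-fold to at least 7.60-fold higher, in 8 to 14 γδ cells each. Avil, which encodes the actin-severing protein advillin, was also at 0 in αβ cells and in 17 of 23 γδ cells.

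Cytokine genes divided as well. Xcl1 (ENSMUSG00000026573, chr1:164931644-164935527) was in 19 of 23 γδ cells (1570 CPM) against 4 of 24 αβ cells (455 CPM), 34 of the 46 αβ UMIs coming from 1 cell. Areg, the epidermal growth factor receptor ligand amphiregulin, was 17.5-fold higher in γδ cells (11.4 to 28.2) at 3797 against 218 CPM, in 13 of 23 against 6 of 24 cells and with up to 94 UMIs in a cell. At 12 months Areg was in 25 of 31 γδ cells at 2731 CPM. Il13 was in 7 γδ cells at each age and in 2 αβ cells. All of these γδ cells held Trdv4, which was in 26 of 31 and 20 of 23 γδ cells at 12 and 6 months. Ifng, in contrast, had 0 UMIs in γδ cells of 6 months against 74 in 11 of 24 αβ cells (at least 26-fold lower in γδ), although 54.1% of those UMIs came from 1 cell, and Ccl5 was at least 14.4-fold lower with 6 αβ cells. Il17a, Il17f and Il22 had 0 UMIs in all T cells, and Fgf7 and Igf1, growth factors attributed to epidermal γδ cells, had 2 UMIs each, in 1 γδ cell at 12 months.

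αβ cells held more co-receptor RNA, and more of Cd28 and Icos, while other receptors of the inhibitory and costimulatory list, Lag3, Cd96 and Tnfrsf9, were higher in γδ cells (4.56-fold, 7.13-fold and 3.56-fold). Cd28 is a gene of the rule, so its level is a description. Cd6, a receptor that tunes T cell receptor signals, had 85 UMIs in 19 of 24 αβ cells against 0 in γδ cells, at least 29.8-fold lower in γδ. Cd5, its relative, was in 15 αβ cells against 0 (at least 14.0-fold lower), and Ms4a4b in 16 against 0 (at least 23.5-fold lower). The other genes with the lowest ratio were Cd8b1, Cd8a, Inpp4b, Ly6c2 and Tyrobp, between at least 10.2-fold and at least 7.36-fold lower. Icos was in 2 γδ against 19 αβ cells (7.57-fold lower, 4.77 to 12.6), Cxcr6 in 13 against 20, Cd69 in 6 against 13 and Gata3 in 4 against 12. Tbx21, the T-bet gene that drives interferon-γ, was in 0 of 31 and 0 of 23 γδ cells and in 13 of 24 αβ cells, and the related Eomes had 1 UMI in all T cells. At 12 months the γδ cells were likewise low, with Cd6 in 1 of 31, Cd5 in 0, Icos in 4 and Cd28 in 2.

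Within the αβ cells of 6 months co-receptors were read in a minority of cells. Cd8b1 was in 8 of 24 and Cd8a in 6, all 6 with Cd8b1, and Cd4 in 5, and no cell held Cd4 and Cd8a together. Foxp3 was in 3, none of them with Cd8b1, all 3 with Ctla4, the inhibitory receptor, and 1 with Cd4. Ctla4 was in 7 cells and Tnfrsf18 in 15, against 0 and 5 of 23 γδ cells. S1pr1, a receptor by which lymphocytes leave tissues, was in 3 αβ cells and 0 γδ cells, and the residency genes Rgs1 and Cxcr6 were in 19 and 20 αβ cells. Top2a, a gene of dividing cells, was in 6 αβ cells against 1 γδ cell. One Trac cell, chosen after its values were seen, had the most UMIs of the class (11721) and held 7 Trac, 32 Fcer1g, 29 Tyrobp, 34 Xcl1 and 199 Gzmc UMIs and no Cd8a or Cd8b1. It carried all of the Fcer1g, Tyrobp and Gzmc RNA of the αβ class, so the place of Tyrobp and Gzmc among the genes lower in γδ cells rests on 1 cell, while Fcer1g was higher in γδ cells with that cell included (7.28-fold, 5.02 to 10.9).

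Levels in γδ cells were compared between 12 months and 6 months without the 12 months cell of 26160 UMIs, leaving 30 against 23 cells, since in the sum over all γδ cells 9 of the 10 highest genes were Col1a2, Dcn, Col1a1, Lum, Ctsk, Col3a1, Tnfaip6, Meg3 and Sparc, each with 99.2% or more of its UMIs in that cell. Of 2006 genes measured, 12.9% were at least 2-fold higher and 12.2% at least 2-fold lower at 12 months, and the median log2 ratio was -0.01. With that cell included these were 12.7% and 14% of 1992 genes and a median of -0.12. For many of the genes named as changed, the same ratio in the other kept cells of the 2 libraries is given. The comparison describes 1 mouse library of each age.

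Several receptor and identity genes of γδ cells had ratios near 1, and others did not. Of those named here, Cd3g, Cd3e, Cd3d, Cd2, Trbc2, Trdc and Tcrg-C1 are genes of the rule, so their levels are a description. Cd3g was at 5156 CPM at 12 months and 5169 CPM at 6 months, a log2 ratio of 0.00 (-0.17 to 0.16), and per cell its median was 4583 and 4539 CPM. Cd3e (-0.05), Trdc (-0.05), Trdv4 (0.02), Trat1 (0.00), Cd247 (0.06), Fcer1g (0.02), Ctsw (-0.03) and Rgs1 (-0.09) lay within 0.1 of 0 on the log2 scale. Cd3d had a log2 ratio of -0.36 (-0.68 to -0.04). Nkg7 and Cd7 were 1.45-fold higher at 12 months each and Tcrg-C1 1.46-fold. Cd2 was 2.60-fold higher (1.67 to 4.16), while the β constant genes Trbc1 and Trbc2 were 2.38-fold (1.65 to 3.46) and 1.76-fold lower (1.08 to 2.89). In other kept cells all 3 went the other way, with Trbc1 and Trbc2 5.32-fold and 1.52-fold higher at 12 months and Cd2 at 0.403-fold. That Cd2 ratio rests on levels of only 0.362 and 0.899 CPM. The rule also took cells partly chosen by Cd2 and Trbc2 out of the other kept cells. Of the epidermal γδ list 0 of 15 measured genes were at least 2-fold higher and 1, Xcl1, lower, and of proximal signalling genes 1 of 16 (Themis) was higher and 3 lower, Plcg1 and Grap2 among them.

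MHC class I genes were lower at 12 months in γδ cells. On that list 0 of 6 measured genes were at least 2-fold higher and 4 were lower (B2m, H2-K1, H2-D1 and H2-Q7), with a median log2 ratio of -1.52. B2m, the light chain of class I molecules, was at 445 CPM at 12 months and 1617 CPM at 6 months, 3.64-fold lower (2.70 to 4.96), in 25 of 30 against 23 of 23 cells, with a median per cell of 290 against 1084 CPM. The heavy chain genes H2-K1 (319 against 1335 CPM, 4.19-fold lower, 2.96 to 6.04) and H2-D1 (1319 against 3008 CPM, 2.28-fold lower, 1.89 to 2.76) went the same way. In the other kept cells the 12 over 6 months ratio was 1.07-fold for B2m, 0.783-fold for H2-K1 and 1.61-fold for H2-D1, none of which was lower by 2-fold. H2-Q7 was 5.23-fold lower (2.37 to 13.1) and Tapbp, a loading factor, had a log2 ratio of 0.02. With γδ cells holding Trdv4 alone the log2 ratio was -2.26 for B2m and -2.53 for H2-K1. Without 2 cells of 6 months that held IL-23 receptor RNA or much Cd163l1, B2m was 3.37-fold lower (2.47 to 4.65), and the same 4 genes of 6 measured were lower.

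**Figure D4:**
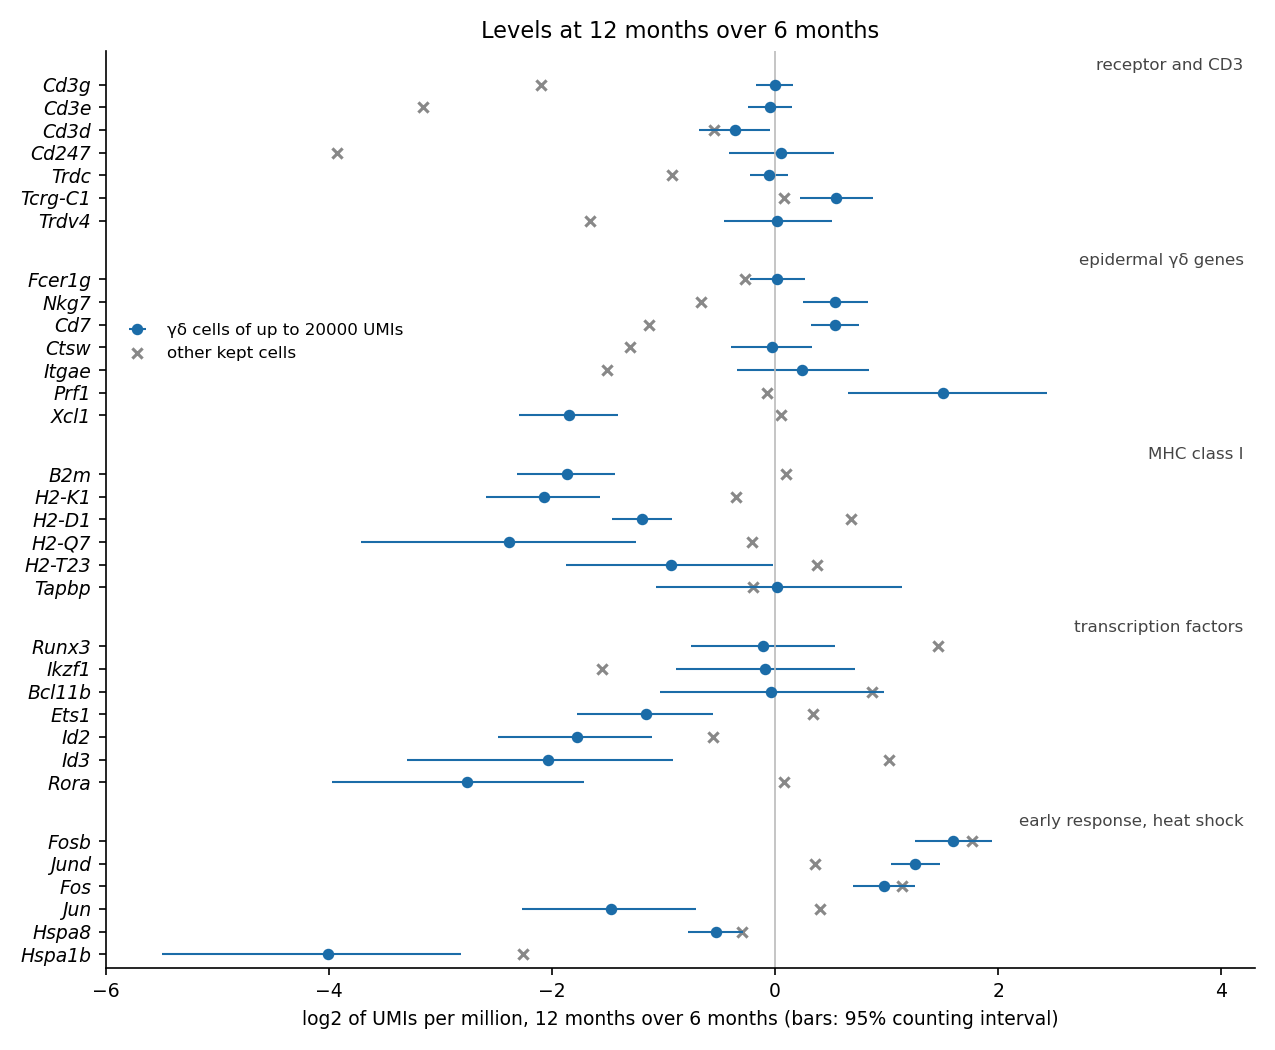
Log2 ratio of CPM at 12 months over 6 months, with circles and 95% counting intervals for γδ cells of up to 20000 UMIs and crosses for the other kept cells, genes grouped by role. Most of the receptor and epidermal γδ genes shown lie near 0, Xcl1, B2m, H2-K1, H2-D1 and H2-Q7 lie at -1.19 to -2.39 with other kept cells nearer 0 or above, and Fosb and Fos lie beside their crosses. Cd3g, Cd3e, Cd3d, Trdc and Tcrg-C1 are genes of the rule.

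Xcl1 was read in 14 of 30 γδ cells at 12 months (437 CPM) against 19 of 23 at 6 months (1570 CPM), 3.59-fold lower (2.65 to 4.92), while its ratio in other kept cells was 1.04 (from 23 and 14 UMIs). Prf1 moved the other way, at 400 CPM in 23 of 30 cells against 141 CPM in 11 of 23 (2.84-fold higher, 1.58 to 5.41), and other kept cells held too few UMIs (3 and 2) for a ratio. Of 6 measured cytotoxic effectors Prf1 alone was 2-fold higher and 0 were lower, and Areg was at 3252 against 3797 CPM. Lag3, an inhibitory receptor, had 0 UMIs in 30 cells at 12 months against 24 in 11 of 23 cells at 6 months, at least 10.1-fold lower. Cytip, a regulator of leukocyte adhesion, was 6.34-fold lower (3.38 to 13.0) with a ratio of 1.27 in other kept cells. Spp1 (osteopontin) had 0 UMIs against 45 in 7 cells, at least 19-fold lower.

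Transcription factors were lower in 6 of 12 measured genes (Rora, Id2, Id3, Maf, Sox4 and Ets1) and higher in 0. Id2, a factor that innate-like lymphocytes need, was 3.42-fold lower (2.15 to 5.58) and Id3 4.09-fold lower (1.88 to 9.82), the ratio in other kept cells being 0.681 and 2.03. Of the 70 Id2 UMIs at 6 months 33 lay in 2 cells, described next, without which Id2 was at 193 against 417 CPM, 2.17-fold lower (1.28 to 3.72). Of the 29 Id3 UMIs 12 lay in the same 2 cells, without which Id3 was 2.87-fold lower (1.21 to 7.32). Ets1 was at 274 against 611 CPM, in 21 of 30 against 17 of 23 cells, but without those 2 cells it was 1.40-fold lower (0.851 to 2.29), and of the factors then measured 3 of 8 were lower (Id2, Id3 and Maf). Rora and Maf came largely from 2 cells of the 6 months library, which held 45 of the 48 Rora and 21 of the 36 Maf UMIs of γδ cells. The same 2 cells, chosen after their values were seen, held all 24 Il7r, all 13 Ccr2 and all 21 Icos UMIs of γδ cells at 6 months, 13 of 16 Cd163l1 UMIs and 6 Il23r UMIs, with 0 Fcer1g, 0 Nkg7 and 0 Xcl1 UMIs. They had 27 and 9 Trdc UMIs, and 1 of them had 1 Trdv4 UMI. The cell with 9 Trdc UMIs had 0 Cd3e UMIs and held at least 3 markers of a lineage other than keratinocytes. It carried 17 of the 24 Il7r UMIs and 31 of the 33 Id2 UMIs of the pair. Of these genes Cd163l1, Il23r and Maf are on the IL-17 γδ list. On that list 0 of 5 measured genes were higher at 12 months and 4 lower (Cd163l1, Maf, Tmem176b and Il18r1), and Il17a itself was at 0. Without the 2 cells 3 of its genes were measured and 2, Maf and Tmem176b, were lower.

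Genes of early response were mixed, and several moved with the libraries. Of 18 measured genes of that list with heat shock genes, 3 were higher at 12 months (Fosb, Jund and Ier5) and 5 lower (Jun, Atf3, Nr4a1, Hspa1a and Hspa1b). Fosb was 3.02-fold higher in γδ cells and 3.39-fold in other kept cells, and Fos 1.97-fold and 2.21-fold. Jund was 2.39-fold higher (2.06 to 2.79) against 1.28-fold in other kept cells, and Nr4a3, a gene that receptor signals induce in T cells, 2.29-fold (1.68 to 3.17) against 0.990. Hspa1a and Hspa1b, whose γδ UMIs at 6 months lay mostly in single cells, were at 0.179-fold and 0.209-fold in other kept cells too.

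Other lists held few genes past 2-fold between 12 and 6 months. Of measured genes, the tissue residency list had 1 of 9 higher (Nr4a3) and 1 lower (Nr4a1), pan-leukocyte genes 1 of 13 higher (Cd48) and 1 lower (Cytip), NK receptors 0 of 9 higher and 2 lower (Klrc2 and Klrb1f), cytokines and chemokines 1 of 8 higher (Ccl5, 38 of 45 UMIs in 1 cell) and 3 lower (Lta, Ltb and Xcl1), and cytokine receptors 1 of 7 higher (Ifnar1) and 2 lower (Il7r and Il18r1). Inhibitory and costimulatory receptors had 1 of 6 higher (Havcr2) and 2 lower (Lag3 and Tnfrsf9), regulatory T cell genes 0 of 5 higher and 1 lower (Tnfrsf9), chemokine receptors 0 of 2 higher and 1 lower (Ccr2), cell cycle genes 1 of 2 higher (Pcna) and recirculation genes 0 of 1. Without the 2 cells with Il7r, Ccr2 and Icos RNA, the lower genes numbered 1 of 7 measured cytokines and chemokines (Xcl1), 0 of 4 cytokine receptors and 0 of 1 chemokine receptor. Of the end words of Klrc1 and Klrc2, 51.0% and 16.3% also occur in the other gene of the pair, so reads between them are uncertain.

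Among genes in at least 30% of the γδ cells of the higher age, a rule chosen after the data were seen, the 12 highest at 12 months were BC018473, Tspan8, Rnaset2b, Ehd3, AY036118, Dlc1, Sphk2, Taf13, Keap1, Stx6, St7 and Atl3. Stx6, a SNARE of the trans-Golgi network, was in 23 of 30 against 6 of 23 cells (719 against 75.2 CPM, 9.56-fold higher, 4.66 to 22.8) with a ratio of 0.623 in other kept cells. Dlc1, a GTPase-activating protein, was in 16 against 2 cells (20.5-fold, 5.40 to 174). AY036118 (19.9-fold) and BC018473 were also higher in other kept cells, 7.75-fold and 13.3-fold. The 12 lowest were Spp1, Lag3, Gm42047, Chl1, Gm8797, Cst6, Zranb1, Axin2, Apoe, Lta, Gbp4 and Xdh, of which Gm8797 was also low in other kept cells at 12 months (0.0632-fold). Axin2, a target of Wnt signalling, was in 1 of 30 against 8 of 23 cells, with 1 and 12 UMIs (15.2-fold lower, 2.25 to 651).

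Over all T cells, 15.2% of 3768 measured genes were at least 2-fold higher and 15.3% at least 2-fold lower at 12 months, and here the mix of receptor types differed too. All 6 measured chemokine receptors, 9 of 10 regulatory T cell genes, 5 of 6 αβ co-receptors and 13 of 20 transcription factors were lower, and the 5 measured fibroblast genes and 5 of 6 keratinocyte genes were higher. The last 2 counts came from cells of over 20000 UMIs: without them the fibroblast list had 8 UMIs at 12 months and 13 at 6 months with 0 genes measured, and the keratinocyte list had 2 genes measured, 1 higher and 1 lower. Foxp3 was in 0 of 42 T cells at 12 months, which allows a share of up to 7.14%, and in 4 of 52 at 6 months. Il2ra, the α chain of the IL-2 receptor, had 0 UMIs at 12 months against 58 in 12 cells at 6 months. What part of these ratios comes from fewer αβ cells and what part from levels within cells was not tested, apart from the γδ values above.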

How the data were processed

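The 3 libraries were read from the deposited matrices of UMI counts, which the authors made with Cell Ranger on mm10, per the labels and file headers (version 6.1.2 in the labels and at P38, 6.0.0 in the headers of the other libraries); counts were not normalized. The authors' cell filter was applied (over 200 and under 5000 genes, under 15% mitochondrial UMIs), which kept 2109, 3502 and 3240 of 2397, 4761 and 5421 barcodes at P38, 6 and 12 months, with 40509290, 48722038 and 48887123 UMIs in all barcodes and medians of 16170, 1019 and 11438.5 UMIs per kept cell. The study states far fewer cells at 6 months than this filter left, and slightly fewer at 12 months. The T cell share and the other kept cells of 6 months rest on the larger number kept here. No column was left unmapped. Python 3.11.15, numpy 2.4.6, scipy 1.17.1 and pandas 2.3.3 were used. UMIs were added up across the cells of each class and expressed per 1000000 (CPM) with exact Poisson intervals, and ratios with exact conditional 95% intervals. Ratios used for list medians, ranking and calls had 0.5 UMIs added to each sum. A gene was called at 2-fold. With 1 library per age no test was run. The members and gene lists were chosen with earlier results of these data known. Named genes were the 25 with the largest T cell ratio in both libraries (in at least 20% of T cells). The 10 highest and 10 lowest were also ranked for γδ over αβ cells and for 12 over 6 months. These ranks used 6 months and γδ cells alone, because 12 months held 2 αβ cells. Not all of the 10 lowest for 12 over 6 months are named. For that comparison the 12 highest and 12 lowest came from a rule chosen after the data were seen. Members of the lists were named besides. The calculations were tested on simulated data. A few genes are not reported here. Alternatives changed filters, class definitions, depth and cells left out.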

Additional observations from a re-analysis of the deposited data

Results flagged for a closer look

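Barcodes that the cell filter removed also held T cell RNA. At 12 months 5 of 2181 removed barcodes met the T cell rule, with 1247 to 48455 UMIs, against 42 of 3240 kept cells. Of these, 3 had 15% or more mitochondrial UMIs and 2 had 5000 or more genes, 4 held Trdc or Tcrg-C1 and 2 held Trac. At 6 months it was 2 of 1259, both with a mitochondrial share over the limit, against 52 of 3502 kept cells.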

How the results depend on the processing

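Over the alternatives, 60 main values stayed within their interval or within 1.5 times and 35 moved, and of the values of named genes 147 stayed, 2 moved and 2 changed sign. The share of T cells at 12 months was 0.867% over all deposited barcodes and 3.86% over kept cells low in Krt14 and Krt5, and at 6 months 6.92% over such cells, 2.83% with at least 1000 genes per cell and 2.51% thinned to 1000 UMIs. The γδ share at 12 months was 76.9% with Trbc1 or Trbc2 as αβ evidence and 75.6% with cells holding both as αβ, and at 6 months 0 and, thinned, 72.7%. Genes 2-fold higher in T cells numbered 727 at 12 months and 707 at 6 months with at least 20 UMIs. For γδ over αβ cells at 6 months the higher genes numbered 187 with at least 20 UMIs, 777 with at least 5 and 141 by the mean log2 of CPM plus 100 per cell, and the lower genes 161, 775 and 72. For 12 over 6 months in all T cells the higher genes numbered 264 (at least 20 UMIs), 1147 (at least 5), 153 (thinned), 252 (γδ cells), 275 (γδ cells and cells with both) and 254 (Trdv4 cells), and the lower 289, 1045, 113, 279, 272 and 218. In γδ cells they numbered 128, 548 and 63 higher and 116, 681 and 51 lower with at least 20 UMIs, at least 5 UMIs and thinned cells. Fewer genes are measured at 20 UMIs or after thinning. The sign changed for Sparc (log2 -4.65 without the cell of mixed lineage) and for Apoe (1.67 over all T cells), and Ccl5 and Atl3 were at 1.07 and 1.26 over all T cells. No γδ over αβ value was computed at 12 months and no αβ value for 12 over 6 months, with 2 αβ cells. The alternatives on T cells over 20000 UMIs, Trdv4 cells, the low-keratin denominator, the Trac cell with Fcer1g, the 6 months cells with Il23r or Cd163l1 and the thresholds in γδ cells were chosen after seeing the data. No paired analysis was possible because each age has 1 library. Depth limits the result: a γδ or αβ class of 23 to 31 cells leaves genes of low level at 0.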

Other observations

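Among cells with Trdc, a small set at 12 months looked unlike the rest, chosen after its values were seen. Of 39 T cells with Trdc there, 5 held Cd28 and no Fcer1g, with 7 to 20 Trdc UMIs each (median 15), Tcrg-C1 in 1, Trdv4 in 0, Trac in 3 and Nkg7 and Cd2 in all 5. The other 34 held Fcer1g in 34, Tcrg-C1 in 34, Trdv4 in 31 and Cd28 in 0. At 6 months 0 of 26 cells with Trdc were of this kind.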
